A study of Mus musculus with 4 samples.

Results

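The genes described here encode the subunits of oxidative phosphorylation complexes I, III, IV and V. They were chosen by symbol among the protein-coding genes of the deposited table (mt-Nd, mt-Co, mt-Cytb, mt-Atp, Nduf, Uqcr, Cox4 to Cox8 and Atp5), which took 93 of 34866 genes. Of these, 13 lie in the mitochondrial genome and 80 in the nucleus: 37 nuclear genes were counted with complex I, 8 with complex III, 18 with complex IV and 17 with complex V. The symbol rule also takes genes that are not fixed subunits of the complex they are counted with. Examples are Ndufa4, now placed in complex IV, Cox7a2l, a factor that joins complexes into supercomplexes, and Atp5s, an associated factor of the ATP synthase.

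RNA came from otic vesicles, the epithelial sacs that form the inner ear, of C57/BL6 mice, taken on embryonic day 11.5. The 2 libraries of the WT group were labelled wild-type (WT 1, WT 2), and the 2 of the KO group came from Meis2 mutants (KO 1, KO 2), which lack normal function of a homeodomain transcription factor gene. The sources used here do not give the kind of Meis2 allele or whether vesicles of several embryos were pooled, so p-values measure only the spread between these libraries. Levels are in TPM, a relative transcript abundance that is corrected for transcript length and keeps no read depth, so the depth is unknown. Markers of otic epithelium were present in all libraries, with 10 of 10 tested and a summed level of 1530.0 and 1334.2 TPM in WT and of 1140.2 and 1195.1 TPM in KO. Much of each sum came from 1 marker, Oc90, at 911.9 and 723.8 TPM in WT and at 561.4 and 601.6 TPM in KO. Of these 10 markers, 8 were lower and 2 higher in KO, and Col9a2 was higher without overlap.

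Oxidative phosphorylation passes electrons through complexes I, III and IV of the inner mitochondrial membrane and uses the resulting proton gradient to make ATP in complex V, the ATP synthase. The mitochondrial genome carries a small set of hydrophobic core subunits of these complexes, read out as long transcripts of both strands that are cut into single messengers. All other subunits are made from nuclear genes and imported, so each complex is built from the products of both genomes.

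Some mitochondrially encoded genes overlap, which bears on how far reads can be assigned to a gene. The reading frame of mt-Atp6 starts inside that of mt-Atp8, and both stay on the same messenger. They share 43 bases (mitochondrial genome, 7927 to 7969, plus strand, GRCm38, GENCODE M21), shown with the start codon of mt-Atp6 in capitals. The end of mt-Nd4l and the start of mt-Nd4 share 7 bases, shown in capitals within their surroundings (10147 to 10189).
mt-Atp8 and mt-Atp6: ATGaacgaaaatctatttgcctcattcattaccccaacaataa
mt-Nd4l and mt-Nd4: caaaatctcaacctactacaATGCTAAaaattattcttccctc
The genes mt-Nd5 and mt-Nd6 overlap by 14 bases (13552 to 13565) on opposite strands, and the sources used here do not give whether the counting used strand.

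Other members have pseudogenes, inactive copies, that are nearly identical to them and are listed in the table as genes of their own. A search of the members' transcripts against the table's pseudogenes (at least 95% identity over at least 80% of the pseudogene) found 39 such copies for 22 nuclear members and 11 for mitochondrially encoded members. The pairs below show why reads of a member and its copy can hardly be told apart, with the differing bases in capitals in windows of 30 bases. Ndufs5 (chromosome 4) and BC002163 (chromosome 16, 42955697 to 42955726, plus strand) differed at 2 of 319 aligned positions, of which the window shows 1.
Ndufs5: gcagaacagccctaTaagaacgccgctcgg
BC002163: gcagaacagccctaCaagaacgccgctcgg
Within the 483 bases aligned, mt-Co1 (window at 6390 to 6419) and Gm29216 (chromosome 1, 24616159 to 24616188, minus strand) differed at 1 position.
mt-Co1: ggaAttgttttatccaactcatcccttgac
Gm29216: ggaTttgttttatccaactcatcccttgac
mt-Nd3 (window at 9459 to 9488) and Gm28438 (chromosome 1, 24613090 to 24613119, minus strand) differed at 1 of 345 positions.
mt-Nd3: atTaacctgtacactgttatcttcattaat
Gm28438: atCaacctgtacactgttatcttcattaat
The copies of mt-Co2 (Gm28661, 681 bases) and mt-Atp6 (Gm10925, 678 bases), and those of Atp5g2 (Gm10175, 645 bases), Ndufb4 (Ndufb4c, 390 bases) and Cox7c (Gm12338, 192 bases), were identical to the member over their whole length.

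The mitochondrially encoded subunits made up 4.75% and 4.40% of all TPM in the WT libraries and 4.85% and 5.49% in the KO libraries (here and below in the order 1, 2). The 80 nuclear genes together made up 2.01% and 2.04% in WT and 2.00% and 1.99% in KO. The mitochondrial share was thus highest in KO 2 and lowest in WT 2, the KO libraries lay above the WT libraries, and WT 1 and KO 1 lay close together. The nuclear share stayed almost level. The summed mitochondrial level was 2.37 and 2.16 times the nuclear one in WT and 2.43 and 2.76 times in KO, a log2 difference of 0.20 between KO and WT. Groups of 2 libraries allow no exact two-sided p below 0.333, so this ratio was not tested.

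In the comparison of KO with WT, 0 of 93 members passed the threshold of an adjusted p of 0.05 in limma fitted on log2(TPM + 1) over 14496 genes, where 0% of all genes were called and the smallest adjusted p was 1.00. Of the 89 members tested, those with a mean of at least 1 TPM, 43 stood higher and 46 lower in KO. Their median log2 difference was -0.0054 against 0.035 for all genes tested, of which 61.6% stood higher. At 100 TPM or more, 36 of 77 members stood higher (median -0.0055), against 912 of 1688 genes tested at that level (median 0.0074). At an unadjusted limma p under 0.05 there were 2 members, mt-Cytb (higher) and Cox4i2 (lower), where 3.50% of all genes tested were under it (2.09% higher and 1.41% lower). On simulated libraries with independent noise, 57.9% of genes given a log2 difference of 1 were called and 92.6% of those given 2, and smaller differences were not simulated. A mean of 8.4 unchanged genes was called as well. The changed genes were drawn from those of higher level, which leaves out low members such as Cox4i2 and Ndufa4l2. In the data the deviations of equally numbered libraries correlated at 0.42 across genes, which the simulated noise did not include. The members' differences were smaller than 1 throughout, from -0.59 to 0.29.

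The difference between the mitochondrial and the nuclear genes was not tested, and their values are given side by side. Of the 13 mitochondrial genes, 12 were higher in KO, with a median log2 difference of 0.21 (-0.015 to 0.29). Of the 76 nuclear genes tested, 31 were higher and 45 lower, with a median of -0.014. Both KO libraries lay above both WT libraries in 6 of 13 mitochondrial genes and the reverse held in 0, where 29.8% of all genes tested did not overlap (19.2% higher and 10.5% lower). Among nuclear genes the counts were 9 higher and 9 lower of 76. The 13 genes come from 1 genome and from shared precursor transcripts, so they are not independent of one another.

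**Figure D1:**
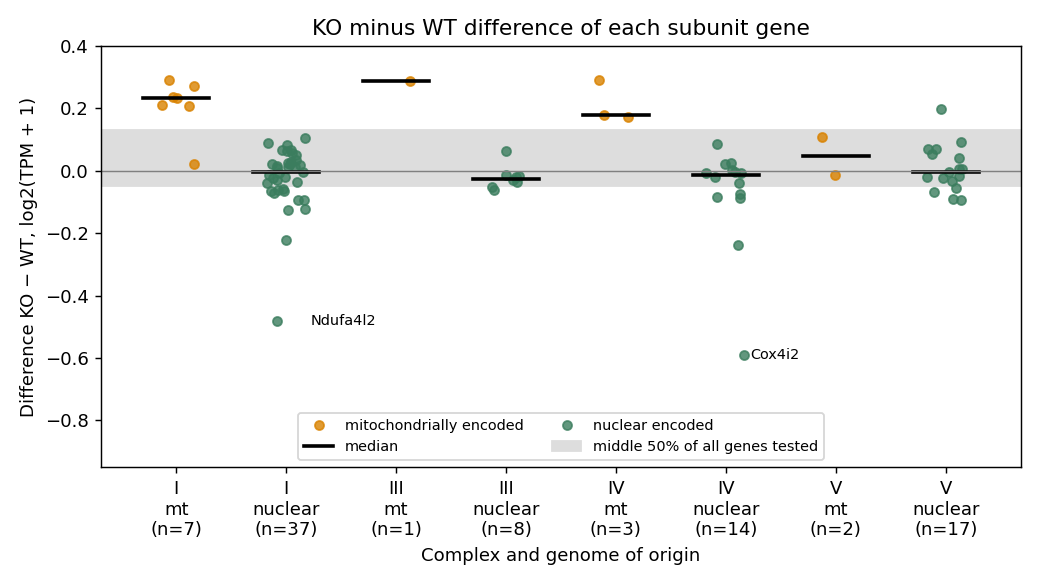
Difference KO minus WT on the log2(TPM + 1) scale (vertical axis) for each of the 89 tested members, by complex and genome of origin (horizontal axis). Points are genes, black bars are medians and the grey band holds the middle 50% of all genes tested. Mitochondrial genes of complexes I, III and IV lie mostly above the band, nuclear genes lie around 0, and Cox4i2 and Ndufa4l2 lie below.

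Complex I, which takes electrons from NADH, has 7 mitochondrially encoded subunits that form the core of its membrane arm. mt-Nd4 was at 2020 and 1668 TPM in WT and at 2117 and 2377 TPM in KO. Its log2 difference was 0.29 (SE 0.13; limma adjusted p = 1.00). mt-Nd6, the only member on the minus strand of the mitochondrial genome, was at 2060 and 1789 TPM in WT and at 2209 and 2431 TPM in KO, a difference of 0.27 (SE 0.11). Neither gene overlapped between the groups, and in both KO 2 was highest and WT 2 lowest. mt-Nd5 was the lowest of the 13, at 1219 and 1135 TPM in WT and at 1223 and 1509 TPM in KO, with KO 1 barely above WT 1. mt-Nd1 was at 4172 and 3302 TPM in WT and at 4066 and 4686 TPM in KO. mt-Nd2 was at 1855 and 1490 TPM in WT and at 1838 and 2090 TPM in KO. In both of these WT 1 lay above KO 1, so the groups overlapped, and the same held for mt-Nd4l at 2178 and 2054 TPM in WT and at 2140 and 2798 TPM in KO. mt-Nd3 was at 3562 and 3172 TPM in WT and at 3288 and 3538 TPM in KO, a difference of 0.021 (SE 0.11).

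In complex III, which passes electrons from ubiquinol to cytochrome c, the mitochondrial genome encodes only cytochrome b. mt-Cytb (ENSMUSG00000064370.1, mitochondrial genome, 14145 to 15288, plus strand) was at 2926 and 2750 TPM in WT and at 3239 and 3708 TPM in KO. It was higher in KO in both pairs of equally numbered libraries. The difference was 0.29 (SE 0.11; limma adjusted p = 1.00).

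Complex IV, cytochrome c oxidase, reduces oxygen to water, and its catalytic core of 3 subunits is mitochondrially encoded. mt-Co1, which holds the oxygen-reducing site, was at 4594 and 4202 TPM in WT and at 4898 and 5902 TPM in KO, a difference of 0.29 (SE 0.13). mt-Co3 was at 6704 and 6113 TPM in WT and at 7434 and 6992 TPM in KO, a difference of 0.17 (SE 0.11). It was the highest of the 13 by mean, and KO 1 was its highest library. mt-Co2, which takes the electrons from cytochrome c, was at 6326 and 5627 TPM in WT and at 6004 and 7604 TPM in KO, so its groups overlapped.

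Complex V has 2 mitochondrially encoded subunits of its proton channel part. mt-Atp6 was at 6025 and 5504 TPM in WT and at 5789 and 6663 TPM in KO, a difference of 0.11 (SE 0.12). mt-Atp8 was at 3826 and 5240 TPM in WT and at 4246 and 4625 TPM in KO, a difference of -0.015 (SE 0.18). It was highest in WT 2, the library in which each of the other 12 had its lowest value. The level of mt-Atp8 relative to mt-Atp6 was 0.64 and 0.95 in WT and 0.73 and 0.69 in KO, although both stay on the same messenger. mt-Atp8 spans 204 bases, the shortest of the 13.

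**Figure D2:**
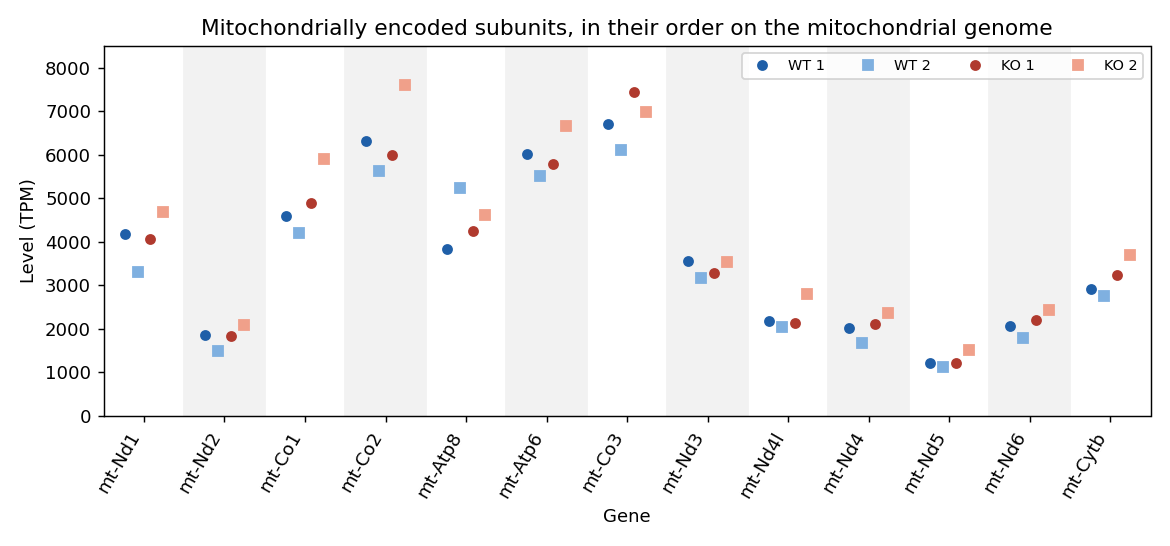
Level in TPM (vertical axis) of the 13 mitochondrially encoded genes in the 4 libraries, in their order on the mitochondrial genome (horizontal axis). Each point is 1 library. KO 2 is highest in 10 genes and WT 2 lowest in 12, with mt-Atp8 as the exception for WT 2.

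KO 2 was the highest library in 10 of 13 mitochondrial genes and WT 2 the lowest in 12 of 13. Between the libraries numbered 1 the median log2 difference KO minus WT of the 13 genes was 0.0054, with 7 genes higher in KO 1. Between those numbered 2 it was 0.43, with 12 higher in KO 2. Without KO 2 the median over all was 0.13, and without KO 1 it was 0.34. The same libraries also differed in the levels of markers of other cell types. The summed level of 10 neuron markers was 350.2 and 600.0 TPM in WT and 283.4 and 882.3 TPM in KO, that of 10 erythroid markers 10846.4 and 25962.8 TPM in WT and 13478.8 and 15333.4 TPM in KO, and none of these markers was at 0 throughout. The 10 markers of periotic mesenchyme, the tissue around the vesicle, summed to 997.5 and 842.1 TPM in WT and to 1384.6 and 933.2 TPM in KO. The part of these marker differences in the mitochondrial levels was not tested. In such bulk samples fewer cells of a type and less RNA per cell cannot be told apart.

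Copies of mitochondrial DNA in the nuclear genome were listed with TPM of their own, and whether these reads came from the mitochondrial genes was not tested. Of the 11 pseudogenes matched to them, 7 lie side by side on chromosome 1 (24611535 to 24616197), and 4 had a mean over 10 TPM. Together the 11 were listed at 2980.1 and 1878.4 TPM in WT and at 3628.5 and 1887.4 TPM in KO, so both libraries numbered 1 lay above both numbered 2. Gm28661, the copy of mt-Co2, was at 1284 and 587.4 TPM in WT and at 1428 and 549.2 TPM in KO. With its copies added, mt-Co2 was at 7610 and 6215 TPM in WT and at 7433 and 8154 TPM in KO. mt-Co1 with its copies was at 5686 and 5004 TPM in WT and at 5909 and 6777 TPM in KO, still without overlap. mt-Atp6 with its copy was at 6606 and 5991 TPM in WT and at 6791 and 7116 TPM in KO, and no longer overlapped. The copy itself, Gm10925, was at 581.0 and 487.1 TPM in WT and at 1003 and 452.7 TPM in KO. After the addition 7 of 13 genes lay higher in KO without overlap, where 19.2% of all genes tested did as listed. The median difference of the 13 stayed at 0.21. The ratio of the mitochondrial to the nuclear sum, copies included, was 2.37 and 2.12 in WT and 2.43 and 2.69 in KO.

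Per gene, mitochondrial members stood at 10.4 to 28.0 times the mean level of the nuclear members of the same complex. As counted by symbol, the ratio was highest in complex IV, at 24.9 and 21.1 in WT and 25.8 and 28.0 in KO. The nuclear mean there was taken over all 18 genes counted with the complex. These include Cox6a2, Cox7b2, Cox8b and Cox8c under 1 TPM, and Cox4i2 and Cox7a1 at means of 5.19 and 5.28 TPM. Such low genes raise the ratio, and Ndufa4 was counted with complex I. Ratios without the low genes were not computed, so the order of the complexes depends on the symbol rule. In complex I it was 14.4 and 12.2 in WT and 14.4 and 16.6 in KO. In complex III it was 11 and 10.4 in WT and 12.2 and 14.3 in KO, and in complex V 11.3 and 12.4 in WT and 11.5 and 13.3 in KO. KO 2 had the highest ratio in each complex. Complex V was the only one in which WT 2 did not have the lowest.

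The nuclear members varied little. Over the 4 libraries the median SD of the log2 level was 0.072 for the 64 nuclear members at 100 TPM or more and 0.083 for all 1688 genes tested at that level. The highest library exceeded the lowest by a factor of 1.12 at the median nuclear gene. No library was highest in most nuclear genes: WT 1 was highest in 21, WT 2 in 25, KO 1 in 18 and KO 2 in 12 of 76.

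**Figure D3:**
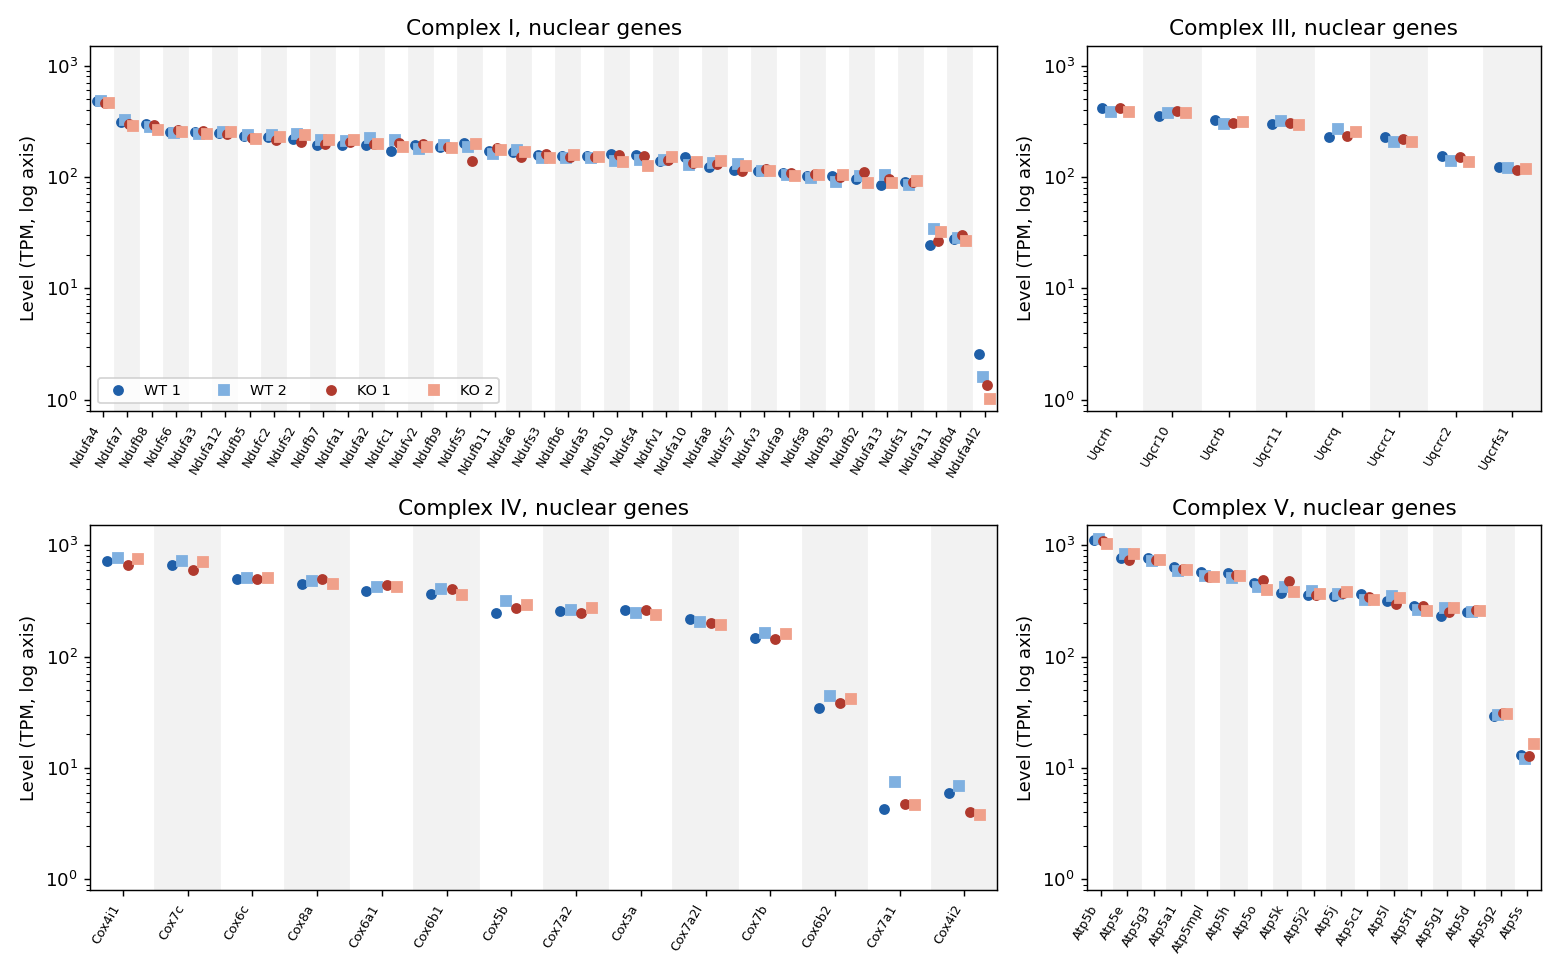
Level in TPM (vertical axis, log scale) of the 76 nuclear members with a mean of at least 1 TPM, by complex, in falling order of mean level (horizontal axis). Each point is 1 library. Of the 76, 64 lie at 100 TPM or more with the 4 libraries close together, and the low genes include Atp5g2, Ndufb4, Cox7a1, Cox4i2 and Ndufa4l2.

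Among the 37 nuclear genes counted with complex I, 18 were higher and 19 lower in KO (median -0.0054). Without overlap, 5 lay higher and 4 lower, where 19.2% and 10.5% of all genes tested did so. Ndufa4 was the highest at 481.6 and 477.6 TPM in WT and at 460.8 and 460.8 TPM in KO, a difference of -0.058 (SE 0.062). The next were Ndufa7 and Ndufb8, accessory subunits. Ndufa7 was at 311.0 and 327.4 TPM in WT and at 301.3 and 283.9 TPM in KO, a difference of -0.13 (SE 0.071). Ndufb8 was at 297.3 and 278.1 TPM in WT and at 293.9 and 266.8 TPM in KO, so its groups overlapped. Ndufb11, an accessory subunit of the membrane arm, was at 170.4 and 160.3 TPM in WT and at 181.0 and 174.8 TPM in KO, a difference of 0.11 (SE 0.069). The limma adjusted p was 1.00 for each of these.

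Complex III had 1 nuclear gene higher and 7 lower in KO (median -0.025). Uqcrh, the hinge protein, was at 419.9 and 385.7 TPM in WT and at 417.7 and 380.1 TPM in KO. Uqcr10 was at 356.0 and 377.3 TPM in WT and at 387.2 and 379.0 TPM in KO, a difference of 0.064 (SE 0.068). Uqcrb was at 323.8 and 299.6 TPM in WT and at 303.7 and 310.3 TPM in KO. Uqcr10 was the gene of the group that was higher in KO, and KO 2 exceeded WT 2 there by less than the WT libraries differed. Uqcrfs1, the Rieske iron-sulfur protein, was at 122.7 and 120.9 TPM in WT and at 115.2 and 118.2 TPM in KO, a difference of -0.061 (SE 0.063). Uqcr11 was at 297.4 and 317.9 TPM in WT and at 302.1 and 290.6 TPM in KO.

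Complex IV had 4 tested nuclear genes higher and 10 lower in KO (median -0.014). Its main nuclear genes did not separate the groups. Cox4i1, the common form of subunit 4, was at 723.8 and 762.0 TPM in WT and at 661.1 and 752.4 TPM in KO. Cox6c was at 500.2 and 510.1 TPM in WT and at 496.6 and 509.0 TPM in KO, a difference of -0.0069 (SE 0.064). Cox7c was at 658.0 and 723.9 TPM in WT and at 598.7 and 705.9 TPM in KO. Its lowest library was KO 1. Cox7a2l was at 217.3 and 202.4 TPM in WT and at 201.9 and 193.4 TPM in KO, a difference of -0.086 (SE 0.072), with no overlap. With its near-identical pseudogene Gm6969 added, it was at 266.2 and 260.9 TPM in WT and at 225.4 and 233.0 TPM in KO. The difference was then -0.20.

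Several complex IV subunits exist in a common form and in forms restricted to certain tissues, such as heart and skeletal muscle, or to certain conditions. The common forms were high. Cox8a was at 444.5 to 496.2 TPM, Cox6a1 at 388.8 to 438.6 TPM, Cox6b1 at 359.0 to 401.6 TPM and Cox7a2 at 245.5 to 272.4 TPM over the 4 libraries. The muscle forms Cox6a2 and Cox8b were listed at 0 in 3 libraries each and at 0.16 and 0.49 TPM in KO 2, and Cox7a1, another muscle form, was at 4.28 and 7.49 TPM in WT and at 4.74 and 4.62 TPM in KO. Cox6b2, known as the testis form, was at 34.7 and 43.9 TPM in WT and at 37.9 and 41.6 TPM in KO. Cox7b2 was at most 0.24 TPM and Cox8c was listed at 0 throughout, and with Cox6a2 and Cox8b these were the 4 members under the filter of 1 TPM.

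The member with the smallest limma p was Cox4i2 (ENSMUSG00000009876.13, chromosome 2, 152754173 to 152765037, plus strand), the form of subunit 4 that is known from lung and other oxygen-sensing cells and is induced by low oxygen. Its level was 5.99 and 6.91 TPM in WT and 4.05 and 3.82 TPM in KO. All WT values (6.45 ± 0.648 TPM, SD, n = 2) lay above all KO values (3.93 ± 0.162 TPM, SD, n = 2). On the log2 scale KO minus WT was -0.59 (SE 0.16; adjusted p = 1.00 in limma). Cox4i1 stood at 121 and 110 times the level of Cox4i2 in WT and at 163 and 197 times in KO. Ndufa4l2 (ENSMUSG00000040280.10, chromosome 10, 127514967 to 127517154, plus strand), the relative of Ndufa4 that low oxygen also induces, was at 2.58 and 1.61 TPM in WT and at 1.36 and 1.02 TPM in KO. Its difference was -0.48 (SE 0.27; limma adjusted p = 1.00), without overlap and at levels close to the filter.

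**Figure D4:**
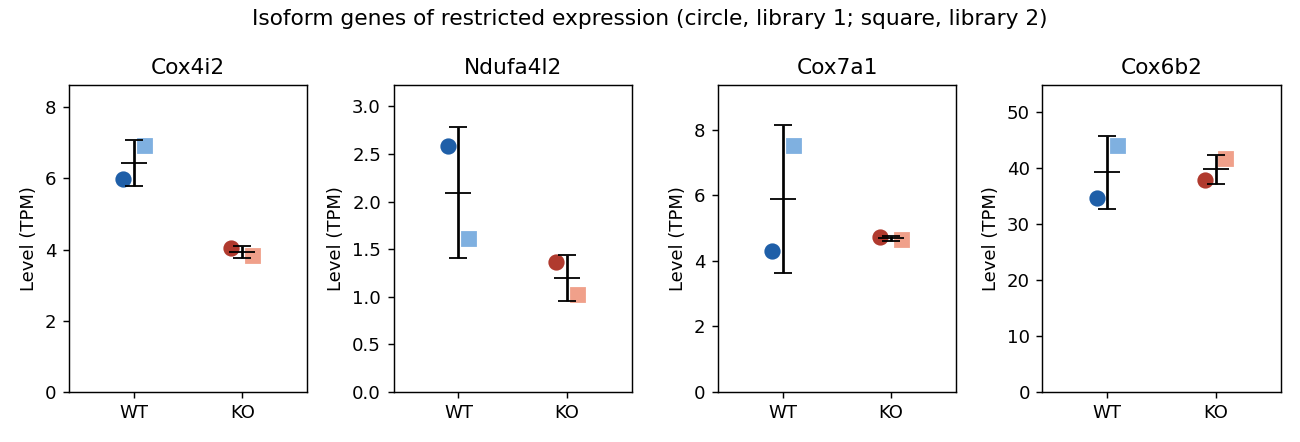
Level in TPM (vertical axis) of Cox4i2, Ndufa4l2, Cox7a1 and Cox6b2 in WT and KO (horizontal axis). Points are libraries, and the bars show the mean and SD of 2 libraries. Cox4i2 and Ndufa4l2 do not overlap between the groups, while Cox7a1 and Cox6b2 do.

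Both genes are also known from pericytes, cells on the wall of small vessels. A list of 9 mural cell genes, drawn up after the values of these 2 genes were seen, had 3 members higher and 4 lower of 7 tested in KO (median -0.040), with a summed level of 138.2 and 139.5 TPM in WT and 147.6 and 131.1 TPM in KO. Rgs5, a pericyte marker, was at 2.45 and 2.74 TPM in WT and at 1.15 and 1.56 TPM in KO, and Higd1b, another, was listed at 0 in 3 libraries. Other genes of the list stood the other way: Cspg4 was at 2.34 and 2.48 TPM in WT and at 3.03 and 2.70 TPM in KO, without overlap. Pdgfrb was at 39.9 and 32.0 TPM in WT and at 49.8 and 34.4 TPM in KO. A list of 12 hypoxia response genes, drawn up at the same point, had 5 higher and 7 lower in KO (median -0.15), and its median was -0.40 for KO 1 against WT 1 and 0.13 for KO 2 against WT 2. Their part in the levels of Cox4i2 and Ndufa4l2 was not tested.

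Complex V had 8 nuclear genes higher and 9 lower in KO (median -0.0050). Atp5b, the catalytic beta subunit, was the highest nuclear member, at 1113 and 1141 TPM in WT and at 1092 and 1019 TPM in KO. The groups did not overlap, and the difference was -0.095 (SE 0.077; limma adjusted p = 1.00). Atp5e, the epsilon subunit, was at 765.0 and 833.6 TPM in WT and at 739.9 and 835.5 TPM in KO. Atp5mpl was at 573.6 and 527.4 TPM in WT and at 513.7 and 520.2 TPM in KO, a difference of -0.089 (SE 0.075). Atp5s was at 13.02 and 11.95 TPM in WT and at 12.7 and 16.4 TPM in KO. Its difference was 0.198, and 0.025 without KO 2.

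Subunit c, which forms the rotating ring of the ATP synthase, is encoded by 3 genes with the same mature protein. Atp5g3 was at 714.8 to 761.2 TPM, Atp5g1 at 230.7 to 271.1 TPM and Atp5g2 at 29.1 to 31.4 TPM over the 4 libraries. Atp5g2 was the gene of the 3 whose groups did not overlap, by 0.055 on the log2 scale (SE 0.081). This order depends on a copy: Gm10175, identical to Atp5g2 over 645 bases, was listed at 583.7 to 614.4 TPM. With it, Atp5g2 was at 643.5 and 638.9 TPM in WT and at 615.1 and 640.2 TPM in KO, and its difference turned to -0.031.

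Ndufb4 was the other nuclear member listed mostly under its copy. It was at 26.7 to 30.4 TPM itself and Ndufb4c at 175.6 to 193.8 TPM, so that 86.9% of their sum stood under the pseudogene, against 95.2% for Atp5g2. Of the 22 nuclear members with a copy, 6 had over 10% of the sum there. For Cox7c the copies were at 163.9 and 219.8 TPM in WT and at 387.0 and 206.7 TPM in KO. KO 1, the lowest library for Cox7c itself, was the highest for the sum, at 985.7 TPM against 821.9 to 943.7 TPM in the others, and the difference KO minus WT turned from -0.086 to 0.11. Ndufs5 showed the same in a single library: it was at 201.7, 187.3 and 197.3 TPM in WT 1, WT 2 and KO 2 and at 140.3 TPM in KO 1, the widest range among nuclear members at 100 TPM or more. BC002163 was at 63.7 TPM in KO 1 and listed at 0 in the other 3. Their sum in KO 1 was 204.0 TPM.

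**Figure D5:**
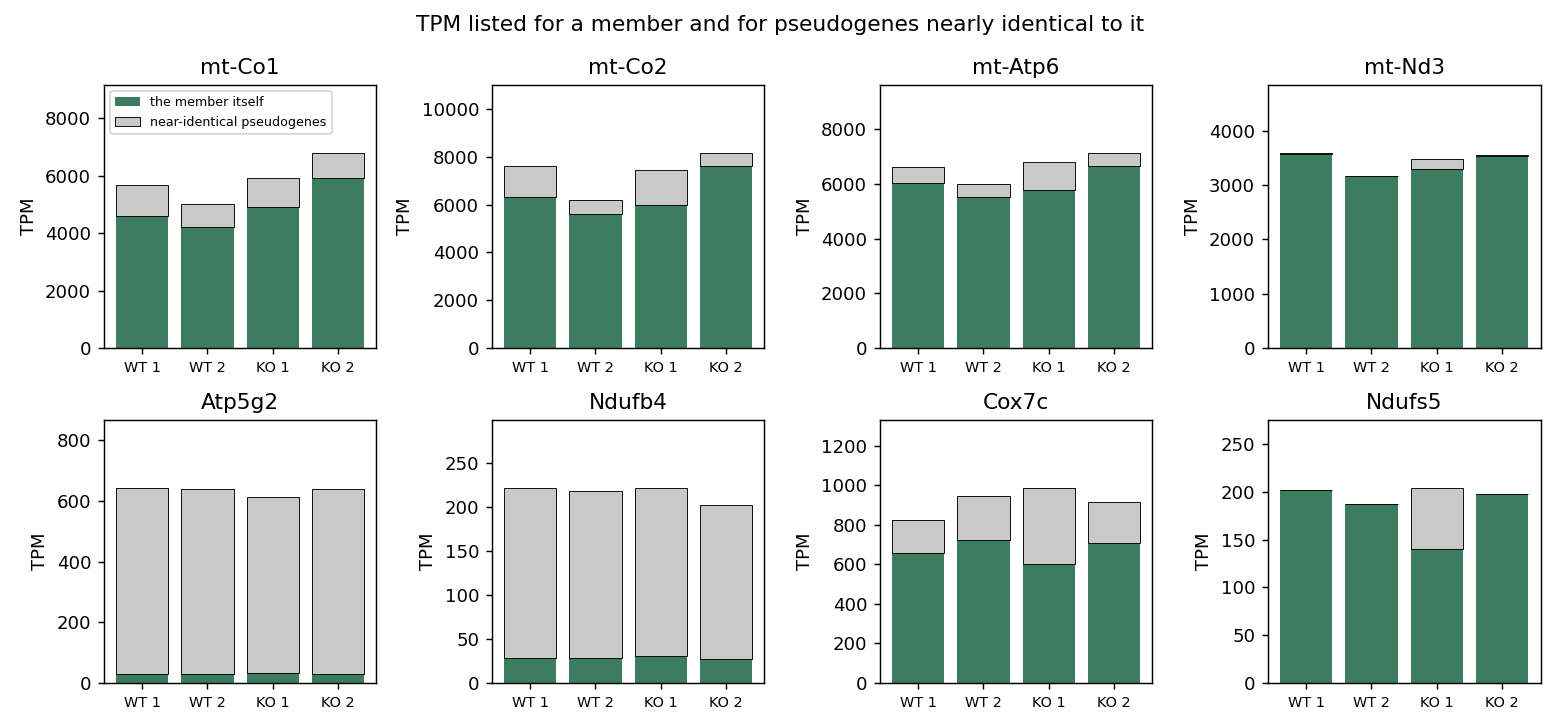
TPM (vertical axis) listed for 8 members (green) and for the pseudogenes nearly identical to them (grey, stacked) in each library (horizontal axis). For Atp5g2 and Ndufb4 most of the sum stands under the pseudogene, and for Ndufs5 the pseudogene is above 0 in KO 1 only, where the member is lowest.

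Other genes of the pathway were read from lists. Complex II (Sdha to Sdhd), which feeds electrons in from succinate and has no mitochondrially encoded subunit, had 1 gene higher and 3 lower in KO, and 0 passed the threshold. Of 5 further genes that the symbol rule misses, 1 was higher and 4 lower (median -0.12). Usmg5, a subunit of the ATP synthase, was at 791.6 and 742.0 TPM in WT and at 654.4 and 708.2 TPM in KO. Atpif1, the inhibitor of its reverse action, was at 619.6 and 594.5 TPM in WT and at 535.7 and 561.0 TPM in KO. Ndufab1, the acyl carrier protein of complex I, was at 219.6 and 220.3 TPM in WT and at 189.2 and 216.1 TPM in KO. These 3 of 5 lay lower in KO without overlap, where 10.5% of all genes tested did, and Cyc1 and Cycs overlapped. Among assembly factors, 8 of 15 for complex I, 4 of 6 for complex III, 11 of 18 for complex IV and 2 of 3 for complex V were higher in KO, and 0 passed the threshold.

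Of 15 genes that copy, transcribe or process mitochondrial DNA, 5 were higher and 10 lower in KO (median -0.012), and 0 passed. Without overlap, 1 lay higher and 4 lower, where 19.2% and 10.5% of all genes tested did so. Tfam, which packages mitochondrial DNA and starts its transcription, was at 121.5 and 106.8 TPM in WT and at 107.9 and 101.5 TPM in KO. Polrmt, the mitochondrial RNA polymerase, was at 31.1 and 31.9 TPM in WT and at 34.6 and 35.0 TPM in KO, without overlap. Slirp, which stabilises mitochondrial messengers together with Lrpprc, was at 119.2 and 118.3 TPM in WT and at 111.9 and 108.4 TPM in KO, also without overlap, while Lrpprc overlapped. Of 78 genes of the mitochondrial ribosome, 39 were higher and 39 lower (median 0.0016). The mitochondrial ribosomal and transfer RNAs were not analysed here.

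The transcription factors Nrf1, Gabpa and Yy1 are known to act on many nuclear genes of oxidative phosphorylation, and their motifs were looked for in the members' promoters. Of the 80 nuclear members, 65 matched a promoter in the RefSeq table (GRCm38.p6), from 250 bases before to 50 bases after the start site. On either strand, 15 of 65 (23.1%) held the NRF1 motif (GCGC at both ends, and between them A and then any base, or on the other strand any base and then T), against 5.19% of all 27025 genes with a promoter. The YY1 motif AAGATGGCG was in 7 (10.8% against 1.64%) and the ETS motif ACCGGAAG, which GABPA binds, in 4 (6.15% against 2.60%). At least 1 of these 3 was in 25 of 65 (38.5% against 8.84%). The comparison is with all genes that had a promoter, whatever their level. No set matched for level or base composition was used. The SP1 motif GGGGCGGGG was in 11 (16.9% against 12.9%) and the ESRRA motif TCAAGGTCA in 1 (1.54% against 0.466%). Windows of 30 bases are shown for the member of complexes I, III, IV and V that had the highest level among those with the NRF1 motif, the match in capitals, in the direction of transcription.
Ndufs6: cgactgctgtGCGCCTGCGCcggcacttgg
Uqcrc1: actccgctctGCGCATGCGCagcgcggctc
Cox6a1: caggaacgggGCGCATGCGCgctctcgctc
Atp5g3: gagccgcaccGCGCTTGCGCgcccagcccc
These lie on chromosome 13 (73328479 to 73328508, minus strand), 9 (108936668 to 108936697, plus), 5 (115349101 to 115349130, minus) and 2 (73911295 to 73911324, minus). Ndufs6 also held the YY1 motif, downstream of the NRF1 match (73328433 to 73328462, minus strand), and the next window shows it.
Ndufs6: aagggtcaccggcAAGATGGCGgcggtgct
Of 7 genes tested among these factors and their partners, 6 were higher and 1 lower in KO (median 0.13), and 0 passed the threshold. The lower one, Nrf1, was at 55.4 and 55.1 TPM in WT and at 54.2 and 53.8 TPM in KO, without overlap. Gabpa was at 43.9 and 39.1 TPM in WT and at 49.0 and 42.7 TPM in KO, and Yy1 at 60.03 and 48.4 TPM in WT and at 60.2 and 51.3 TPM in KO. The coactivator gene Ppargc1b was at 1.10 and 1.11 TPM in WT and at 1.41 and 1.75 TPM in KO, a difference of 0.29 (SE 0.23) without overlap. Pprc1, a related coactivator gene, was at 35.2 and 44.6 TPM in WT and at 40.8 and 50.8 TPM in KO, and Ppargc1a was at 0.54 to 1.16 TPM. A match is a description of the letters and does not show that a factor binds there.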

How the data were processed

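The authors deposited gene-level TPM values for 4 libraries. They were made with Salmon 0.9.1 on GRCm38, per the submitters' processing notes. The sources used here do not give the annotation release, the summing over transcripts or the treatment of pseudogenes. Gene IDs were matched by number to GENCODE M21 (GRCm38), which named 34652 of 34866. The fit used limma 3.58.1 (R 4.3.3) with genotype as the only term and a mean-variance trend, on log2(TPM + 1) of the 14496 genes whose mean reached 1 TPM; p-values are two-sided and were adjusted after Benjamini and Hochberg. Differences are KO minus WT on that scale and understate changes of low genes. The fit was tested on 10 simulations with 200 changed genes each. Pseudogene copies were found with blastn 2.17.0. Named members are all mitochondrial ones, the 3 highest and the 3 of smallest p per nuclear complex, and paired isoforms; Ndufs5, Ndufb4, Cox7b2, Cox8c and genes of other lists were named after their values were seen. The members and lists were chosen with earlier results of these data known. Alternatives covered filters, pseudocounts, scalings, a replicate block and leaving out each library. The fit with pseudogenes added to members and that of coding genes only were added after the data were seen.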

Additional observations from a re-analysis of the deposited data

How the results depend on the processing

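Under the 15 alternatives, 0 members passed the threshold. With a library left out, 0 to 10 genes were called over the whole table (10 without KO 2, 2 without KO 1), none of them members; the lone library of a group is then assumed to vary like the other group. The median difference of mitochondrial members ranged from 0.13 to 0.34 with a library left out, and that of nuclear members from -0.019 to 0.0052; with median-of-ratios scaling the nuclear median was -0.045. The log2 ratio of mitochondrial to nuclear sums was 0.10 to 0.29 with a library left out. Of 41 named members tested, 24 kept their direction under each alternative that gave them a value; the 13 mitochondrial members have none after rescaling without those genes, and Ndufa4l2 has none at a minimum of 5 TPM. Of those that turned, Cox7a1 stood at -0.24 as reported and at 0.10 without WT 2. With median-of-ratios scaling Cox6b2 was at -0.0056, Cox8a at -0.0096 and mt-Nd3 at -0.011. With quantile normalization Atp5g3 was at 0.0049, Cox6b2 at -0.020, Cox6c at 0.0078 and Uqcrb at 0.0019. With TPM rescaled after removing mitochondrially encoded genes Atp5g3 was at 0.0041, Cox6b1 at 0.0032, Cox6c at 0.0021 and Cox7a2 at 0.0035. With pseudogenes added Atp5g1 was at -0.027, Atp5g2 at -0.031 and Cox7c at 0.11. The cause was not tested.

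With a library left out, the differences ranged from -0.11 to 0.065 for Atp5e, -0.044 to 0.18 for Atp5g1, -0.050 to 0.040 for Atp5g3, -0.17 to 0.019 for Cox4i1, -0.087 to 0.075 for Cox6b1, -0.14 to 0.19 for Cox6b2, -0.025 to 0.011 for Cox6c, -0.58 to 0.10 for Cox7a1, -0.080 to 0.069 for Cox7a2, -0.21 to 0.032 for Cox7c, -0.057 to 0.10 for Cox8a, -0.11 to 0.032 for Ndufb8, -0.077 to 0.035 for Uqcrb, -0.082 to 0.053 for Uqcrh, -0.24 to 0.21 for mt-Atp8 and -0.063 to 0.11 for mt-Nd3.

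The replicate block called 0 genes and 0 members and left the medians at 0.21 and -0.014. The labels do not say that equal numbers mark a shared litter or day; the deviations of equally numbered libraries from their group means correlated at 0.42 across 14496 genes, which are not independent replicates. TPM keeps no depth, which limits what can be said of genes at a few TPM such as Ndufa4l2.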
